A study of Mus musculus and Heterocephalus glaber with 4 samples.

Results

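The sites described here are stretches of naked mole rat DNA that were called open in skin fibroblasts carrying SV40 large T antigen and not in control fibroblasts. They were selected by position: a peak of the large T list was kept when no control peak overlapped it by 1 bp or more and when it lay on a scaffold whose last peak in either list ended beyond 1 Mb. This gave 21088 large T-only sites among 82156 large T peaks on 216 scaffolds, 25.7% of them (exact 95% interval 25.4 to 26.0). The 4 deposited lists of the series held 302336 peaks in all. The remaining 61068 large T peaks on these scaffolds overlapped at least 1 control peak and are called shared.

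ATAC-seq was run on cultured adult skin fibroblasts of mouse and naked mole rat (Heterocephalus glaber), with 1 control library and 1 library of cells given SV40 large T antigen per species. All cells were at passage 16 and grew in 15% serum at 3% oxygen and 5% CO2, at 32 °C for naked mole rat and 37 °C for mouse. Each library started from 50000 cells. The labels do not state how large T antigen was introduced, how many animals were used or whether the cells were clonal. Each group had 1 library, so values carry no replicate error and the conditions were compared without a test. The depth of sequencing behind the lists is unknown.

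ATAC-seq marks DNA that is free enough of nucleosomes for a transposase to insert adapters, which in fibroblasts is mostly at promoters and at distal regulatory elements such as enhancers. Large T antigen binds p53, which drives arrest and death genes after damage, and the retinoblastoma family, which holds back E2F-driven cell-cycle genes. It is widely used to push fibroblasts past senescence. No genome or gene annotation of the assembly of these lists was used here, so neither sequences nor genes at the sites are given, and the fibroblast label was not checked against marker genes. The release of the scaffold assembly is also unknown here.

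Large T-only sites were weak sites of their list. The score is the peak caller's own value for each peak, its definition is not given, and it starts at 50 in both naked mole rat lists, so it was used only within 1 list. Large T-only sites had scores from 50 to 779, with a median of 80.4, against a median of 207 for shared peaks. When the large T list was divided into 10 equal score classes (deciles, 1 the lowest), 86.2% of the sites (18171) fell in the lower 5 deciles. Of the peaks of decile 1, 5073 of 8216 were large T-only (61.7%, 60.7 to 62.8). The weakest peaks, those of decile 1, were thus more often in this list alone than shared. The share then dropped at each step: it was 45.1% in decile 3, 25.7% in decile 5, 10.5% in decile 7 and 1.48% in decile 9. In decile 10, which starts at a score of 512, only 14 of 8215 peaks were found in the large T list alone (0.17%, 0.0932 to 0.286). Large T-only sites made up 25.7% of the list by number but 18.0% of its covered bases, 21.8 Mb of 121.1 Mb.

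**Figure D1:**
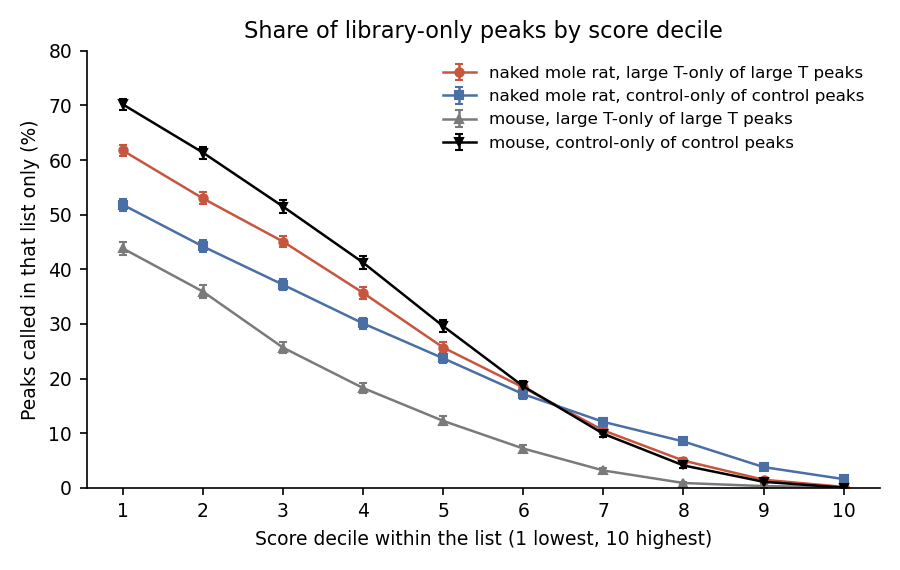
Share of peaks found in only 1 list of a species (y axis, %) against the score decile within that list (x axis), for the large T and control peaks of naked mole rat and of mouse; bars are exact 95% binomial intervals over peaks. The naked mole rat large T curve starts at 61.7% in decile 1, below mouse control (70.2%) and above the other two, and ends below naked mole rat control, at 0.17% against 1.60% in decile 10.

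The same decline ran through the other 3 lists, with different slopes. Naked mole rat control-only sites numbered 18303 of 79538 control peaks on the same scaffolds (23.0%), and mouse large T-only sites numbered 9341 of 63258 (14.8%). Of 75120 mouse control peaks, 28.8% overlapped no mouse large T peak. In decile 1 the library-only share was 51.8% among naked mole rat control peaks and 43.8% among mouse large T peaks, both below the 61.7% of naked mole rat large T peaks, and 70.2% (69.1 to 71.2) among mouse control peaks, above it. In decile 10 the order changed: 127 of 7953 control peaks were control-only (1.60%, 1.33 to 1.90), against the 14 large T-only peaks. The naked mole rat large T-only share stood above the control-only share in deciles 1 to 6 and below it in deciles 7 to 10. The lists differ in length and in unknown depth, and the difference between these curves was not tested.

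The sites were narrow, and narrower than shared peaks of like score. Large T-only widths ran from 302 to 8574 bp with a median of 933 bp, against 1394 bp for shared large T peaks. Much of this difference went with the score: shared peaks weighted to the score deciles of the large T-only sites had a median of 979 bp. The rest held in each decile, since the large T-only median was the lower in 10 of 10 deciles and the 95% intervals of the medians were separate in all of them. A wider peak has more bases that a control peak can overlap, so the lower widths may follow in part from the selection. In decile 1 the medians were 768 bp (760 to 777) for large T-only and 829 bp (819 to 839) for shared peaks. The difference was widest in the high deciles, with 1422 against 1623 bp in decile 8, 1485.5 against 1873.5 bp in decile 9 and 1522.5 against 2154 bp in decile 10. Scores were not matched within a decile, so part of these differences may still go with score. Decile 10 ran from a score of 512 to 1887, while its 14 large T-only sites reached at most 779. Peaks at least 2 kb wide made up 3.40% of large T-only sites (716 peaks), 24.9% of shared peaks and 7.83% of shared peaks after weighting by decile.

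**Figure D2:**
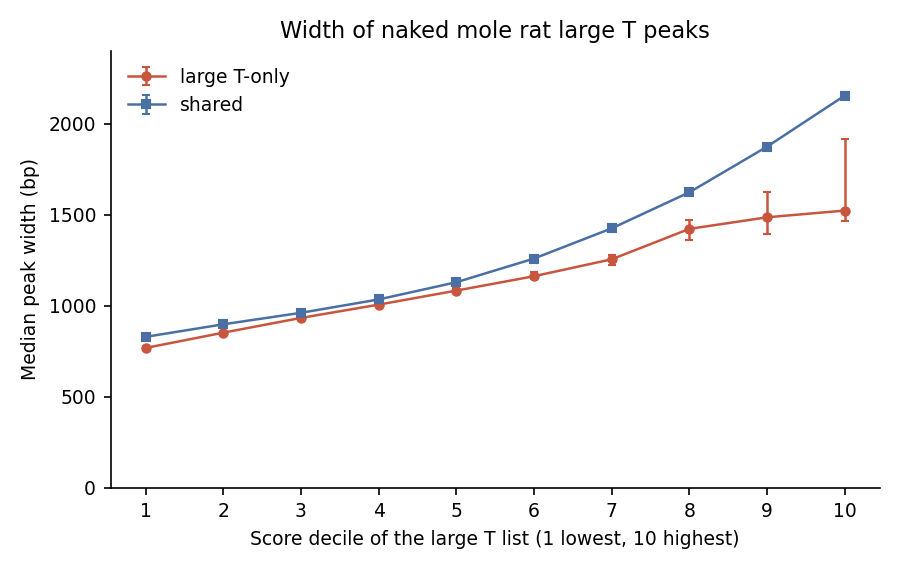
Median width in bp (y axis, from 0) of large T-only and shared large T peaks of naked mole rat in each score decile (x axis); bars are 95% order-statistic intervals of the median. Large T-only peaks lie below shared peaks in every decile, with 768 against 829 bp in decile 1 and 1522.5 against 2154 bp in decile 10. Scores are not matched within a decile.

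The 5 widest large T-only sites were broad and weak. They lay on JH602236 (358246 to 366819, 8574 bp, score 92.9), JH602214 (399717 to 407364, 7648 bp, score 90.8), JH602052 (28993399 to 29000978, 7580 bp, score 59.4), JH602259 (585905 to 592951, 7047 bp, score 86.7) and JH602054 (24090937 to 24097193, 6257 bp, score 67.1). All 5 belonged to deciles 1 to 3, and each stood in a region with 5 to 17 control peaks within 100 kb. These broad stretches were thus not remote from the peaks of the control list.

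Most large T-only sites stood clear of any control peak by several kilobases. The gap from edge to edge to the nearest control peak had a median of 9165 bp, with 25% of sites closer than 3989 bp and 25% farther than 22388 bp. Within 500 bp of a control peak there were 783 sites (3.71%), within 5 kb 6528 (31.0%), within 20 kb 15266 (72.4%) and within 100 kb 20066 (95.2%). Few sites thus lay right beside a control peak. At the edge of the selection rule, 48 large T-only sites lay 1 to 50 bp from a control peak, with a median score of 73.1 and a median width of 957 bp. On the other side, 27 shared peaks overlapped control peaks by 1 to 50 bp, with a median score of 76.0 and a median width of 1023 bp. The scaffold rule also left a gap, as the last peak ended at 873124 bp on the longest scaffold left out and at 1003089 bp on the shortest one kept.

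A 2nd kind of near neighbour was a control peak that was itself without a partner. Of the 783 large T-only sites within 500 bp of a control peak, 261 (33.3%, 30.0 to 36.8) had a control-only peak as that neighbour. Over all distances the share was 22.3% (4695 sites), near the 23.0% of all control peaks on these scaffolds that were control-only. In the 261 pairs within 500 bp each list had its own site, side by side, and neither overlapped the other.

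Large T-only sites also stood apart from the other peaks of their own list. The median gap to the nearest shared large T peak was 11838.5 bp, against 8515 bp from shared peaks of like score to the nearest other shared peak. This order held in 10 of 10 deciles, with separate intervals in deciles 1 to 9. Shared peaks are part of the selection rule, so the nearest large T peak of either class was measured too. It lay 8023 bp away for large T-only sites and 6408 bp away for shared peaks of like score, and the large T-only median was the larger in 9 of 10 deciles. Within 100 kb to each side, large T-only sites had a median of 8 other large T peaks and 8 control peaks, and shared peaks of like score had 9 and 10. The sites thus lay in somewhat sparser stretches of the large T list. The control counts follow in part from the selection, since each shared peak has at least 1 control peak at its own position and the large T-only sites have none there.

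The distance grew with the score. From decile 1 to decile 9 the median gap from large T-only sites to the nearest control peak rose from 8282 to 22194 bp, and that to the nearest shared large T peak from 10685 to 23618.5 bp. For shared peaks the same gap changed less, from 8461 to 10118 bp. In decile 10 the 14 large T-only sites had a median gap to a shared peak of 119695 bp, with an interval of 8381 to 240564 bp that includes the 12082 bp of shared peaks. The gap to the nearest large T peak of either class showed no such climb at the top, with 8593 bp for these 14 sites and 9775 bp for shared peaks of decile 10. In the median these 14 sites thus had a distant shared peak and a nearer large T peak of either class, with wide intervals. For some of them that nearest peak was itself shared.

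**Figure D3:**
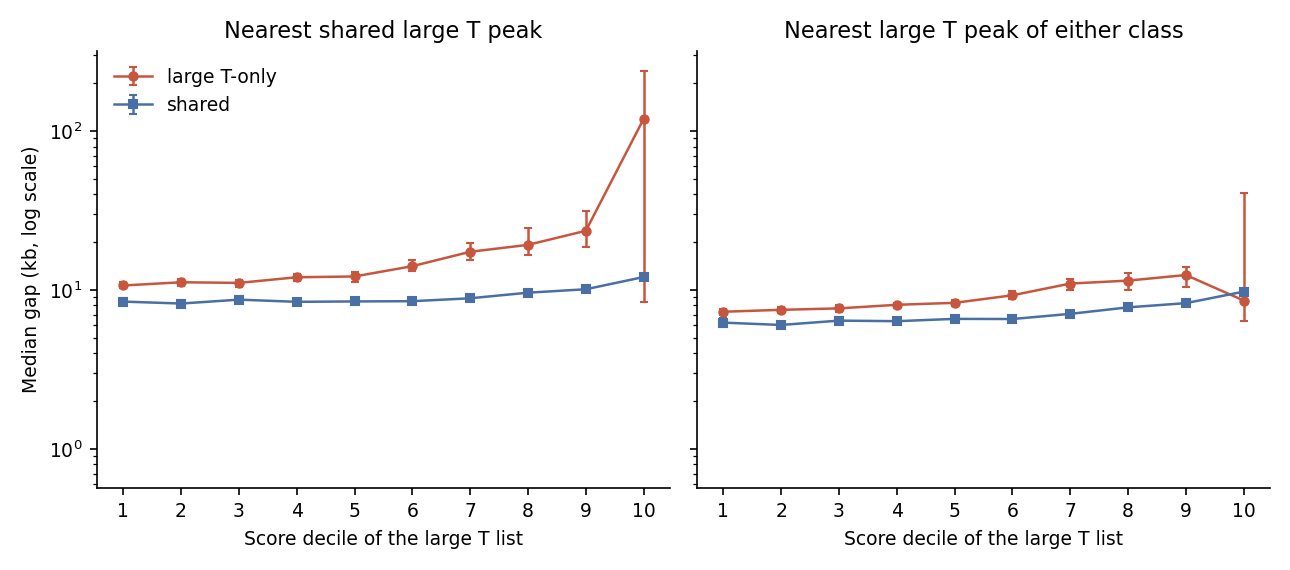
Median gap in kb (y axis, log scale) from naked mole rat large T peaks to the nearest shared large T peak (left) and to the nearest large T peak of either class (right), by score decile (x axis), for large T-only and shared peaks; bars are 95% order-statistic intervals. On the left the large T-only line climbs to 119695 bp in decile 10, where 14 sites give a wide bar, while on the right the large T-only line falls to 8593 bp there, below the shared line.

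The 5 highest-scoring large T-only sites varied in this. The first, on JH602080 (14218493 to 14220494, score 779), ranked 1998 of the 82156 large T peaks and was a lone site, with a control peak 6656 bp away and 8 within 100 kb. The next, on JH602170 (4313042 to 4314641, score 715), lay in a series of 8 consecutive large T-only peaks and 33008 bp from the nearest control peak. The peak on JH602066 (23421812 to 23423298, score 673) had no control peak within 100 kb but 9 large T peaks, in a series of 11 large T-only peaks. That on JH602054 (14489509 to 14490971, score 642) belonged to a series of 5, with a control peak 8419 bp away. That on JH602153 (2952612 to 2954527, score 629) belonged to a series of 17, with no control peak over the 1350589 bp before it. Only the first of the 5 stood without a large T-only peak before or after it in the list. For the sites on JH602080 and JH602054 the nearest large T peak was a shared one, 6431 and 8381 bp away. For the site on JH602153 the nearest large T peak of either class lay 40957 bp away.

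Of all 14 large T-only sites in decile 10, 12 lay in series of at least 2 and 11 in series of at least 5, on 13 scaffolds, and 7 had no control peak within 100 kb. Such a series, or run, is a row of consecutive large T peaks on a scaffold that are all large T-only. Runs of at least 5 held 6.82% of large T-only sites in decile 1, 14.9% in decile 7, 23.0% in decile 9 and 78.6% (49.2 to 95.3) in decile 10. In deciles 8 to 10 together they held 123 of 545 sites (22.6%, 19.1 to 26.3). The corresponding value was 130 of 1104 (11.8%, 9.93 to 13.8) for naked mole rat control-only sites 4 of 84 (4.76%, 1.31 to 11.7) for mouse large T-only sites and 64 of 394 (16.2%, 12.7 to 20.3) for mouse control-only sites, whose interval overlaps that of the large T-only sites. In deciles 1 to 5 it was 7.41% for naked mole rat large T-only sites and 5.38%, 1.49% and 7.07% for the other sets in the same order. The longest run had 21 peaks among naked mole rat large T-only sites, 24 among control-only sites, 11 among mouse large T-only and 13 among mouse control-only sites. Run length depends on the library-only share of each list, and these differences were not tested.

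The next peak was large T-only more often after a large T-only peak than after a shared one. After a large T-only peak the next large T peak was large T-only in 31.7% of cases (6664 of 21033), and after a shared peak in 23.6%. The same order was seen for naked mole rat control-only peaks (28.7% against 21.3%) and mouse large T-only peaks (17.4% against 14.3%). These shares were not matched by score. The 21088 sites formed 14424 runs: 10369 sites stood alone between shared peaks, 8980 lay in runs of 2 to 4, 1394 in runs of 5 to 9 and 345 in the 27 runs of at least 10, on 24 scaffolds. The median score rose with run length, from 78.3 for lone sites to 81.6, 88.3 and 101 (92.2 to 106) in runs of at least 10. The share of sites in the upper 5 score deciles rose likewise, from 11.8% to 14.4%, 21.0% and 29.0%. Width did not rise with it, with medians of 943, 927, 910 and 923 bp. A shared peak ends a run, so by definition only control-only peaks could lie inside one. Of the 27 runs of at least 10, 21 held no control-only peak, and the number expected was not computed.

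The 3 longest runs, which by definition hold no shared peak, held no control-only peak and so were long stretches without a control peak. On JH602111 (4318584 to 5724813), 21 large T-only peaks were spread over 1.41 Mb inside 1.79 Mb without a control peak. Their scores ran from 51.9 to 424 with a median of 99.7, their widths from 532 to 1935 bp, and 8 of the 21 were in deciles 6 to 10. A stretch looked at after its values were seen followed: the run ended at 1 shared peak, and 12 further large T-only peaks came after it, so that 33 large T-only peaks stood against 1 control peak over 1.81 Mb. On JH602052 (6016639 to 6818593), 19 peaks lay within 0.802 Mb, with a median spacing of 12362 bp and scores of 54.0 to 546. This run was the densest of the 3 and held 2 peaks of at least 2 kb. On JH602153 (1603895 to 2996668), 17 peaks were spread over 1.39 Mb, of which they covered 16.1 kb, with scores of 51.4 to 629. Long stretches of this run held no peak, the longest of 513128 bp. Each run mixed peaks near the lower score limit with peaks of decile 9 or 10.

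**Figure D4:**
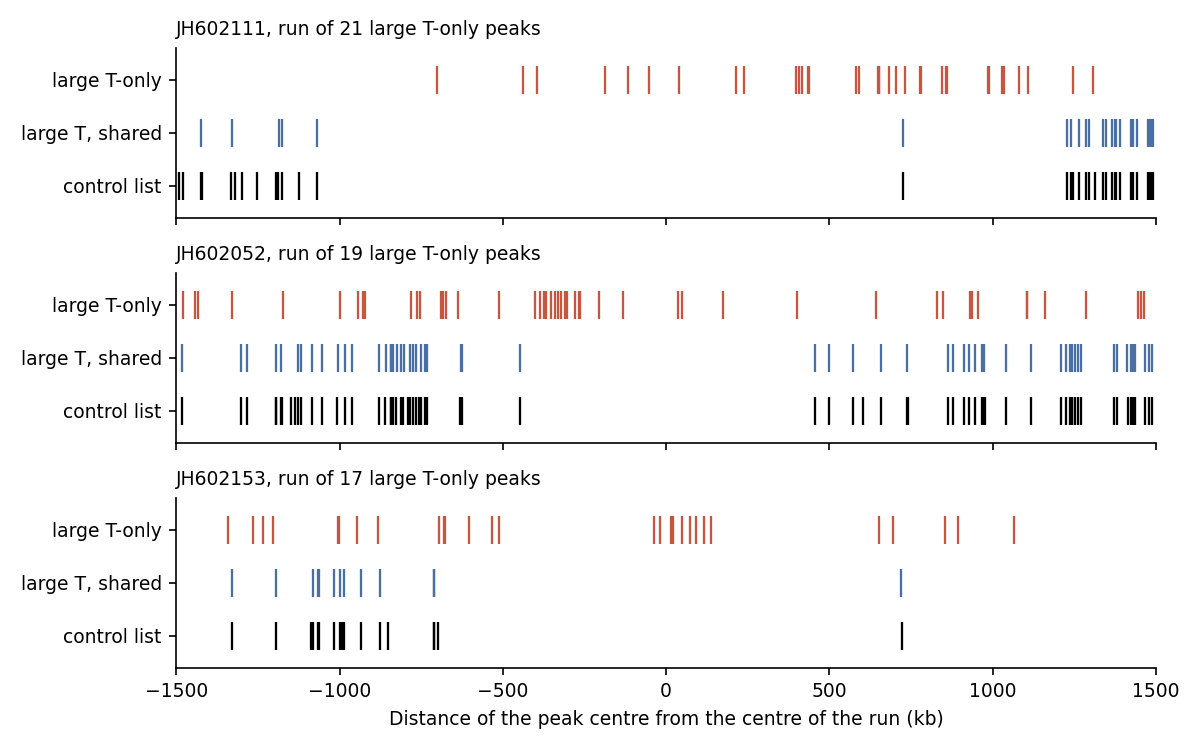
Positions of peaks (ticks) around the 3 longest runs of large T-only peaks, as distance in kb from the centre of the run (x axis), with large T-only peaks, shared large T peaks and control peaks on separate rows. No control peak falls inside the runs of 21, 19 and 17 peaks, where by definition only control-only peaks could lie. Shared and control peaks are seen outside them.

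The sites farthest from any control peak were moderate in score. The 3 farthest lay on JH602186, at 5281183 to 5281793, 4855145 to 4855838 and 4854024 to 4854842, and were 2374174, 1948136 and 1947015 bp from the last control peak of that scaffold, which ended at 2907008. Their scores were 97.1, 87.9 and 143. All 3 belonged to a run of 9 large T-only peaks that reached the last peak of the scaffold. The 4th, on JH602144 (6234660 to 6235475, score 55.8), lay 1675170 bp from control peaks. The 5th, on JH602093 (8494228 to 8496166, score 246), lay 1629585 bp away in a run of 14. Of these 5, 4 scored above the large T-only median of 80.4, and only the last was in the upper 5 deciles.

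The sites were then divided by the shared large T peak closest to them. Sites within 5 kb of one are called flanking (4920, 23.3%) and all others isolated (16168, 76.7%, 76.1 to 77.2). Among shared peaks weighted to the same deciles, 68.1% were isolated from other shared peaks, and the large T-only share was the higher in each of the 10 deciles. Flanking sites had a median score of 75.1 (highest 494) and isolated sites 82.4 (highest 779). Only 0.813% of flanking sites (40) but 3.12% of isolated sites (505) were in deciles 8 to 10. Runs of at least 5 held 59 of the flanking and 1680 of the isolated sites (10.4% of the latter). A shared peak beside a site ends its run, so the last values follow in part from the division.

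Flanking sites were wider than isolated ones in spite of their lower scores. Their median widths were 1073 and 903 bp, and 868 bp for isolated sites weighted to the deciles of the flanking ones. The order was the same in each of deciles 1 to 7, with 944 against 729 bp in decile 1 and 1476.5 against 1230 bp in decile 7. Shared peaks showed the same order, with medians of 1016.5 bp for those near another shared peak and 776 bp for the others in decile 1. Wider peaks near a neighbour were thus common to both classes. Sites of 2 kb or more made up 6.59% of flanking and 2.42% of isolated sites.

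Most flanking sites were weaker than the shared peak beside them, and isolated sites were so at least as often. Of the 4920 flanking sites, 3895 (79.2%, 78.0 to 80.3) scored below the shared peak that they flanked, and of the 16168 isolated sites 13335 (82.5%, 81.9 to 83.1) scored below the nearest shared peak. Each flanking site was counted only at the shared peak nearest to it. These flanked peaks numbered 4780, 7.83% of the shared peaks, of which 4641 had 1 such site, 138 had 2 and 1 had 3. A shared peak within 5 kb of a site that lay nearer to another shared peak was not counted as flanked by it. The flanked shared peaks were weaker than the other shared peaks, with a median score of 148 against 213, and 5.61% against 14.1% were in decile 10. Low scores also went with a close shared neighbour. Of shared peaks, 67.9% in deciles 1 to 5 and 86.6% in decile 10 were isolated from other shared peaks. Gaps of up to 1 kb were found for 1088 sites and gaps of 4001 to 5000 bp for 1180, with 854 to 939 in the classes between.

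Shared peaks with a large T-only flank ranked lower in the large T list than in the control list. For this, 60696 pairs of shared peaks were ranked by score within each list, and the shift is the large T minus the control rank in percentile points. The rule for the sites did not use scores of shared peaks. The median shift was -2.92 points (-3.54 to -2.29) for 4770 flanked peaks and 1.25 (1.12 to 1.38) for 55926 others. Of the flanked peaks, 42.7% ranked higher in large T, against 54.3% of the others. The flanked median was the lower in all 10 deciles of the control score, with -10.4 against 1.08 points in decile 5 and -3.08 against -0.79 in decile 10. The shift differed between classes of gap without a steady order: it was -4.30, -6.23, -7.09 and -1.95 points in the successive 1 kb classes up to 4 kb and 1.61 (0.898 to 2.55) at 4001 to 5000 bp, where it was not below that of the other shared peaks.

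The mirror comparison ran the other way. Shared peaks with a control-only flank within 5 kb (4966 pairs) had a median shift of 3.91 points (3.32 to 4.69), that is, they ranked lower in the control list, in which the flank was called. The 349 pairs with a flank of each kind had a shift of 0.70 (-2.25 to 3.24). Shared peaks that had another shared peak within 5 kb and no large T-only flank had 0.64 points (0.345 to 0.906). In the medians over all gaps up to 5 kb, then, a shared peak stood lower in the list that also held an extra site beside it. For large T-only flanks this did not hold at 4001 to 5000 bp.

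Beyond 5 kb the nearest shared peak leaned towards large T. Its median shift was 2.67 points (2.36 to 3.11) for the 9006 large T-only sites at 5 to 20 kb, 2.40 for those at 20 to 100 kb and 4.50 (3.04 to 5.74) for the 1264 over 100 kb away. With shared peaks as the starting point, the values were 1.11, 0.70 and -0.25 points at these distances.

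Large T-only sites were spread over nearly the whole assembly. They were found on 214 of the 216 scaffolds, with at most 687 on 1 scaffold (JH602043, the one with the most peaks). The 10 scaffolds with most sites held 19.2% of the sites and 17.9% of all large T peaks. On the 159 scaffolds with at least 100 large T peaks, the large T-only share ran from 13.6% to 41.4% with a median of 25.5%, and 50% of the scaffolds lay between 21.8% and 28.6%. The density, counted up to the last peak of each scaffold in either list, had a median of 8.71 sites per Mb (1.60 to 14.2). Of the 159 exact intervals, 21 lay above the overall share of 25.7% and 33 below it. Neighbouring peaks are not independent, so these intervals are too narrow.

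Part of the spread among scaffolds went with how weak their peaks were. A share was computed for each scaffold from the score deciles of its peaks alone. Across the 159 scaffolds it correlated with the observed share (Pearson r 0.53, Spearman rho 0.52), and r was 0.51 without the 2 scaffolds farthest from the median. The correlation with the control-only share was weaker (r 0.22, rho 0.28, and r 0.26 without the 2 farthest). The scaffolds share both libraries and the same score scale, and the values are descriptions.

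Among scaffolds with at least 100 large T peaks, the highest shares stood well above the value that scores alone gave. JH602170 had 53 large T-only sites among 128 peaks (41.4%, 32.8 to 50.4), JH602052 had 503 among 1222 (41.2%, 38.4 to 44.0) and JH602153 had 68 among 173 (39.3%, 32.0 to 47.0), where the deciles gave 26.7%, 26.5% and 29.5%. On JH602052 the shared peaks also ranked higher in large T, with a median shift of 6.87 points, and 17.6% of control peaks were control-only. On JH602153 the shift was -2.79 points and 29.1% of control peaks were control-only, so both lists had many sites of their own there. JH602170 lay between, with 1.23 points and 23.7%. The 3 scaffolds with the highest large T-only shares thus differed in their shared and control peaks. Per Mb, JH602052 had 14.2 sites, the highest density among scaffolds with at least 100 large T peaks. JH602170 with 8.02 and JH602153 with 8.78 were near the median scaffold.

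Among the same scaffolds, the lowest shares were on JH602116 (21 of 154, 13.6%, 8.64 to 20.1), JH602239 (15 of 101, 14.9%) and JH602221 (27 of 174, 15.5%). JH602116 was low although the deciles of its peaks gave 28.0%, and there 43.5% of control peaks were control-only and shared peaks had a shift of -4.32 points. On JH602239 and JH602221 the control-only share was low too, at 5.43% and 9.15%, so that the lists overlapped closely.

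**Figure D5:**
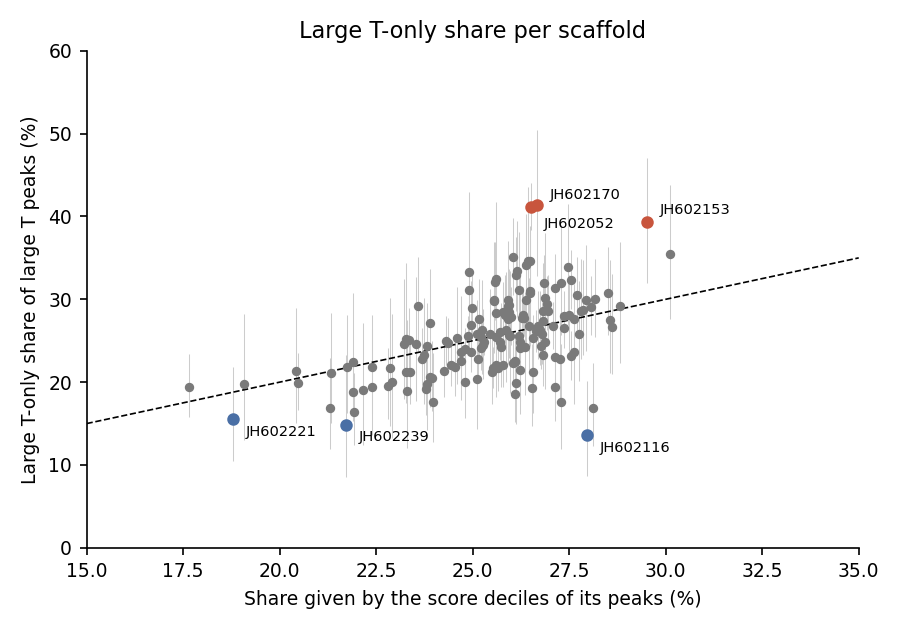
Large T-only share of large T peaks in % on each of 159 scaffolds with at least 100 large T peaks (y axis, with exact 95% intervals) against the share given by the score deciles of its peaks (x axis); the dashed line marks equal values, and the 3 highest (red) and 3 lowest (blue) scaffolds are named. JH602170, JH602052 and JH602153 lie far above the line and JH602116 far below it.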

How the data were processed

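Each library has 1 peak list from the authors, giving sequence name, start, end, peak name and score. The score in the deposited lists has no stated definition. Start and end, the other columns used, are base pairs in the authors' files, read as BED intervals and printed 1-based. Peak names begin with MACS. Per the submitters' processing notes, the tools were bedtools, Bowtie, CASAVA and SAMtools, in roles not stated, and the build named there, mm9, cannot hold for naked mole rat scaffolds.

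Overlap, gaps, runs and deciles were computed with scipy 1.17.1, pandas 2.3.3 and numpy 2.4.6 under Python 3.11.15. Overlap, gaps and runs were tested on lists with planted answers, some artificial and some drawn from the large T list. For the sites themselves, bedtools 2.31.1 gave the same 21088. Score-matched values weight shared peaks to the decile counts of the large T-only sites. Intervals are exact binomial (Clopper-Pearson) for shares and order-statistic for medians. Both kinds hold for counting error alone and take peaks as independent, which neighbours are not. Named by rule were the 5 highest-scoring, 5 widest and 5 farthest sites, the 3 longest runs and the 3 scaffolds at each end. These scaffolds were taken from those with at least 100 large T peaks. The sites and measures were chosen with earlier results of these data known. Rank shifts, flanked shared peaks and run-length classes, and the score of isolated sites against the nearest shared peak, were added after the lists were seen. Gene lists and marker checks were planned and not run, for want of an annotation. Alternatives changed the overlap that counts as shared, the score range, the scaffolds, the distance measure and the flanking distance.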

Additional observations from a re-analysis of the deposited data

Results flagged for a closer look

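For 4 of 6 measures, the difference between large T-only and control-only peaks had opposite signs in naked mole rat and mouse. For width, the naked mole rat difference was only 4 bp. Each measure rests on 1 library per group, and none of the differences was tested. Naked mole rat values come from the scaffolds used above and mouse values from all chromosomes. Library-only peaks, large T minus control, differed in number by 2785 in naked mole rat and -12263 in mouse. Their median width differed by 4 bp and -75 bp, the naked mole rat medians being nearly equal at 933 and 929 bp. The share that was isolated from shared peaks differed by 4.82 and -8.57 percentage points. Their median gap to the other list differed by 1583 and -4355 bp. All 4 come from the same lists, whose lengths differ in the same directions. The remaining measures ran the same way in both species. The share in the lowest score decile differed by 1.54 points in naked mole rat and 5.28 in mouse. The share in deciles 9 and 10 differed by -1.70 and -0.0983 points.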

How the results depend on the processing

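Of 57 values recomputed under other settings, 26 stayed within the counting interval of the value reported (the longest run within 1.5 times) and 31 moved. None changed sign: under each setting tried, the sites were narrower than score-matched shared peaks and farther from a shared peak. In the order overall share, share in decile 1, width difference from score-matched shared peaks, median control gap, distance difference and isolated share, the values reported are 25.7%, 61.7%, -46 bp, 9165 bp, 3323.5 bp and 76.7%. When 50% of a peak had to be covered, the share was 27.6%, the width difference -31 bp, the control gap 8169.5 bp and the median scaffold 27.1%, and the like sets had 24.6% (naked mole rat control-only) and 15.4% (mouse large T-only). When a control peak within 500 bp counted as shared, they were 24.7%, 59.0%, -55 bp, 9726 bp, 4325 bp and 78.5%, with 24.1% for the median scaffold. In the higher-scoring 50% of the large T list they were 7.11%, 20.5%, -130 bp, 12902 bp, 10107 bp and 93.5%, with 6.90% for the median scaffold and a longest run of 9. In the higher-scoring 50% of each list they were 26.2%, 65.7%, -82 bp, 17294 bp, 4165 bp and 91.0%, with a longest run of 12. In both of these score settings the deciles were formed anew after the cut, so decile 1 holds other peaks than in the value reported. Gaps and isolation were measured there to the peaks left after the cut, which are fewer. Between peak centres the control gap was 10405 bp. With flanks of 2 and 10 kb, 90.4% and 55.2% were isolated. Finer score classes and leaving out JH602052, both chosen after seeing the data, moved none of the values they were applied to. No paired analysis was possible because each group had 1 library.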

Other observations

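The shorter scaffolds, left out above, held 1141 large T peaks on 453 scaffolds, of which 312 (27.3%, 24.8 to 30.0) overlapped no control peak. Scaffold lengths were not used, so the last peak of a scaffold in either list stood for its far end. Within 100 kb of the scaffold start or of that last peak lay 1.64% of the large T-only sites and 1.80% of score-matched shared peaks. In 3492 cases (16.6%) a large T-only site had neither a control peak nor another large T peak within 20 kb.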
